A study of Mus musculus with 80 samples.

Results

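Muscle fibres with central nuclei were compared with fibres labelled normal from the same mice, in tibialis anterior, the shin muscle, whose fibres are mostly fast. The comparison took every region labelled central nuclei (22 regions, written CN here) and the normal regions (18 regions, NORM) of the 11 animals that had both, out of 80 regions in the whole data set. Expression was measured on the NanoString GeoMx platform with its mouse whole transcriptome probe set: light cuts the barcodes off the probes bound within an outlined area of a section, and the barcodes are counted. The measure for each gene was the mean log2(value + 1) over the CN regions of an animal minus the mean over its NORM regions, so that each animal gave 1 difference.

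The 11 animals were 6 controls (C2, C3, C16, C20, C30 and C40) and 5 tau animals (T7, T13, T14, T15 and T20). All are labelled as WT genotype on the C57Bl/6 strain, and the tau animals carry the label tauopathy in a study of P301L tau, a mutant form of the microtubule-binding protein tau. The name of the deposited table includes P301L-AAV8, and AAV8 is a viral vector. Neither the ages nor whether controls received a vector are stated in the labels. Control animals contributed 11 CN and 11 NORM regions, and tau animals 11 CN and 7 NORM regions. How the areas were chosen and outlined is not stated, so the name central nuclei is taken from the labels alone. All regions carry the cell type label Myofibers, and muscle genes such as Myh4 were far above background in every one. One CN region of T7 has the word FLAG in its column name, and it was kept.

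In healthy muscle the nuclei of a fibre lie beneath its membrane, and a fibre that has been rebuilt after damage keeps nuclei in its centre for a long time. Rebuilding starts from satellite cells, the muscle stem cells marked by the transcription factor Pax7, which pass through a Myog-positive stage. The young fibre then uses developmental sarcomere proteins such as the myosin heavy chains Myh3 and Myh8 and the light chain Myl4 before adult forms replace them. Macrophages and other cells that display antigen on major histocompatibility complex (MHC) class II molecules gather where fibres are damaged and cleared.

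All class II genes share a promoter module that includes a Y box with the core ATTGG, and the bases upstream of a pair of them are printed because Cd74 and H2-Aa of the class II pathway were among the 10 genes with the smallest p in this comparison. The sequences are the 250 bases before the annotated start in RefSeq's GRCm38.p6 assembly, 5′ to 3′ on the gene's own strand, with ATTGG or its reverse complement CCAAT in capitals. H2-Aa, which encodes the alpha chain of the class II molecule I-A, is on the minus strand at chr17:34287824-34288073, and H2-Eb1, the beta chain gene of I-E, is on the plus strand at chr17:34305617-34305866.
H2-Aa: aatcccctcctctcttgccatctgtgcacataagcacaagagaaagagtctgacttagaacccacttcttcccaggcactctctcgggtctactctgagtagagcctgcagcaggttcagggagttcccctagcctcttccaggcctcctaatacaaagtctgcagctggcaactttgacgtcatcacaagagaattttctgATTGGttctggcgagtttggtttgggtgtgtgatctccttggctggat
H2-Eb1: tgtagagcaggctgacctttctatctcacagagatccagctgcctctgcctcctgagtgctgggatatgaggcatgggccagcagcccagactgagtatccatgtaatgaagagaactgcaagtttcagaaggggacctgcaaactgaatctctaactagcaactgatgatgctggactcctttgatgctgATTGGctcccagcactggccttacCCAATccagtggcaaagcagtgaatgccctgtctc
The motif occurred once for H2-Aa, starting 48 bases before the start, and at 2 places for H2-Eb1, 59 and 35 bases before it. It is a common string, present on either strand in 33.8% of the 32851 promoter windows of the same length in the RefSeq table, so a match is a description of these letters and not of a site.

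No gene passed the test between CN and NORM fibres. Of 10188 genes tested, 0 (0%) had an adjusted p under 0.05 in either direction (limma on the within-animal differences, Benjamini-Hochberg adjustment over all genes), and the lowest adjusted p was 0.998. At an unadjusted p under 0.05 there were 289 genes, 2.84% of those tested, of which 181 (1.78%) were higher and 108 lower in CN. The largest mean difference of any gene was 0.48 on the log2 scale, for Fhl1, and 0 genes differed by more than 0.5. For 10164 genes, 99.8% of those tested, the 95% confidence interval of the difference lay within a 1.5-fold change in either direction, with a median half-width of 0.16 log2 units. These intervals describe the values as deposited, which include background, so that a change in a low gene is compressed towards 0 in them.

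Slightly more than an even share of genes were on the CN side, with 5548 of 10188 differences above 0 (54.5%) and a median difference of 0.01. Among the 500 genes with the highest levels, 358 were above 0 and the median was 0.03, and 0 of them reached an unadjusted p under 0.05. The spread between regions of one type in one animal was close to the spread of the CN to NORM differences over animals. Over genes, the median SD was 0.26 between same-type regions of an animal (16 sets of regions, 18 degrees of freedom) and 0.26 between the differences of the 11 animals. The former is a spread of single regions and the latter of differences of region means, so the SDs are not on one scale.

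**Figure D1:**
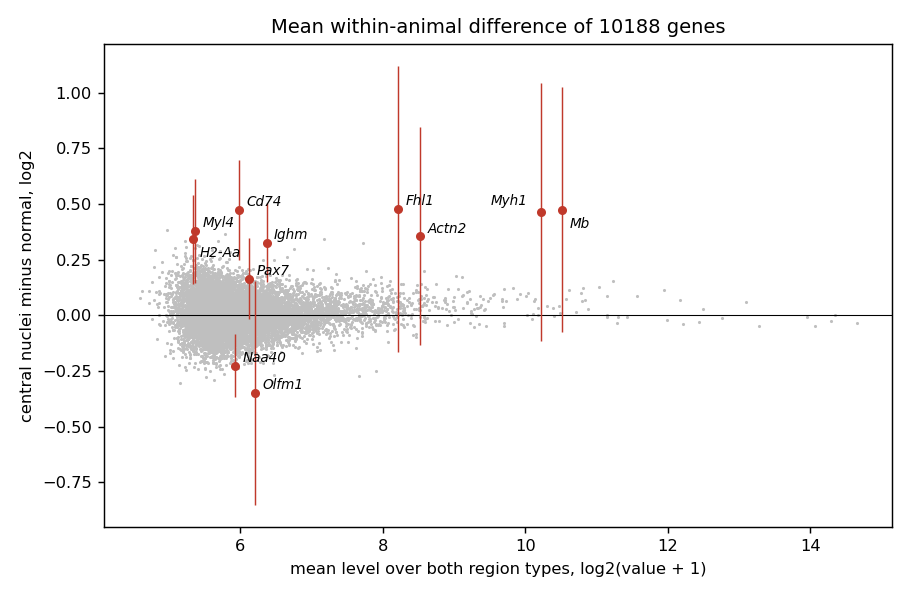
Mean CN minus NORM difference (y axis, log2) of each of the 10188 tested genes against its mean level (x axis, log2(value + 1)). Grey points are genes, red points are genes named in the text with bars for the 95% confidence interval, and the intervals of Fhl1, Mb and Myh1 are wide and reach below 0.

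Depth and background differed little between the region types. CN regions held 342068 to 3356106 recovered counts with a median of 1501953, and NORM regions 312262 to 2943382 with a median of 1174631. The log2 total count was 0.06 ± 0.49 higher in CN (mean and SD of 11 differences, higher in 5 of 11 animals, exact two-sided sign-flip permutation p = 0.717). The value of the negative probes, which match no gene and measure background, ran from 24.1 to 50.3 in CN and from 23.8 to 53.2 in NORM, and its log2 difference was -0.02 ± 0.14 (7 of 11 above 0, exact p = 0.863). Animal C20 had the largest background gap, -0.40, and C40 the largest depth gap, 1.25, with 315108 counts in one of its NORM regions and 2265668 in the other. The regions lay on 3 scans named in the table's header, with 3 of the 11 animals on scan 1 and 4 each on scans 2 and 3. Negative probe values on scan 2 were 40.8 to 53.2, above nearly all of those on scan 1 (23.8 to 37.7) and scan 3 (24.9 to 41.3).

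Class II antigen presentation genes had higher mean levels in CN than in NORM, by differences that did not pass the test. Cd74, the invariant chain that guides class II molecules to the compartment where peptide is loaded, had the smallest p of all genes. Its level in CN ran from 5.44 to 6.88 over the 11 animals with a median of 6.16, against 5.04 to 6.32 in NORM with a median of 5.74. The ranges of the 2 region types overlapped, and within animals CN was higher in 9 of 11, with C30 (-0.16) and T7 (-0.06) on the other side. The largest differences were in T13 (1.21) and C16 (1.17), and the mean was 0.47 ± 0.11 (SE, n = 11, 95% interval 0.25 to 0.70, limma p = 0.000262, adjusted p = 0.998).

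H2-Aa spans chr17:34282744-34287823 in GRCm38.p6, with H2-Ab1, the beta chain gene of the same molecule, beside it at chr17:34263227-34269418. H2-Aa was at 4.83 to 6.26 in CN (median 5.52) and at 4.69 to 5.75 in NORM (median 5.04), and it was higher in CN in 10 of 11 animals. The exception was C30 at -0.32, and the highest difference was 0.84 in T13. Its mean difference was 0.34 ± 0.10 (SE, limma p = 0.00192, adjusted p = 0.998). H2-Ab1 differed by 0.29 ± 0.11 (p = 0.0134, adjusted p = 0.998), with 7 of 11 animals above 0 and T13 again highest at 1.29. All 3 class II genes were close to background: averaged over the regions used, H2-Aa was 0.11, H2-Ab1 0.38 and Cd74 0.77 log2 units above the negative probe value.

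Of 11 class II genes listed, 8 were in the table and 3 (Cd74, H2-Aa and H2-Ab1) passed the filter on low values, which asked for 1.5 times the negative probe value in at least 10% of all regions. All 3 had a positive mean difference, with a median of 0.34 against 0.01 over all genes. H2-Eb1 did not pass the filter and had mean levels of 5.05 in CN and 4.91 in NORM, 0.24 log2 units below the negative probe value when averaged over both. The transactivator Ciita, which switches class II genes on, was at 5.11 and 5.07, also below it. Of the other untested members, H2-Ob was higher in CN by 0.10, while H2-DMb1 (-0.03) and H2-DMb2 (-0.15) were lower. They too lay below the negative probe value on average. The values of the class II list thus rest on 3 genes, and more antigen-presenting cells and more RNA per cell cannot be told apart in such regions.

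Class II signal also varied between CN regions of one animal. In T13 the 3 CN regions had Cd74 levels of 7.53, 6.50 and 6.26, and its NORM region 5.56. In T20 the single CN region was at 6.88, while the 2 NORM regions were at 5.69 and 6.69. In C30, CN regions of the same animal had H2-Aa levels of 6.04 and 4.01, on both sides of its NORM regions at 5.41 and 5.27. These CN regions were shallow, with 342068 and 345257 recovered counts beside a CN median of 1501953. The level of 4.01 was below the negative probe value of its own region, so this gap rests on low counts. The SD between same-type regions was 0.39 for Cd74 and 0.49 for H2-Aa, beside mean differences of 0.47 and 0.34. These SDs are of single regions and are not the error of the mean differences.

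Markers of macrophages, which present antigen on class II molecules, were measured beside these genes. Of 22 listed, 16 were in the table and 5 were tested: Csf1r, the receptor for macrophage colony-stimulating factor (0.17 ± 0.10), the complement genes C1qa (0.10 ± 0.09) and C1qc (0.12 ± 0.12), the Fc receptor chain Fcer1g (0.09 ± 0.08) and the mannose receptor Mrc1 (0.00 ± 0.08). All 5 means were above 0 with a median of 0.10, and 0 had an unadjusted p under 0.05. The summed value of the 16 genes was 403 to 710 in CN and 429 to 705 in NORM and was higher in CN in 6 of 11 animals. The defining markers Adgre1, Cd68 and Itgam did not pass the filter and lay below the negative probe value on average. Their mean differences were below 0, at -0.04 (4 of 11 animals above 0), -0.17 (3 of 11) and -0.09 (4 of 11). Other untested markers had both signs, such as Laptm5 at 0.16 and Cd14 at -0.09. No gene is listed at 0 in any region. The part of macrophages in the class II differences was not tested.

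Ighm, the heavy chain of immunoglobulin M, was at 5.90 to 7.62 in CN (median 6.38) and 5.59 to 6.74 in NORM (median 6.15). It was higher in CN in 8 of 11 animals, and the 3 animals below 0 (C40, T7 and T14, down to -0.05) were on scan 2. The difference was 0.33 ± 0.09 (SE, limma p = 0.00104, adjusted p = 0.998), with means of 0.42 on scan 1, -0.02 on scan 2 and 0.61 on scan 3. Within T15, 2 CN regions were at 8.20 and 8.56 and the third at 6.10, a wider gap than any CN to NORM difference of this gene. Ighm was the only tested member of 9 listed B and plasma cell markers. Igkc, the kappa light chain, did not pass the filter and had mean levels of 5.34 in CN and 5.32 in NORM.

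Class I genes did not share the class II pattern of signs in their mean differences, though their summed value leaned to CN. Of 9 tested class I and peptide loading genes, 4 were above 0 with a median of -0.01. In this list 1 gene was higher in CN at an unadjusted limma p under 0.05. The summed value of the 13 class I genes with values was higher in CN in 9 of 11 animals, beside 10 of 11 for class II. Of 9 tested interferon response genes 3 were above 0 with a median of -0.0039. The signs of both small medians flipped under several alternative settings, including subtraction of the negative probe value.

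Regeneration markers differed in sign and size, and none passed the test. Pax7 was at 5.70 to 6.55 in CN (median 6.18) and 5.26 to 6.54 in NORM (median 6.09), with CN higher in 7 of 11 animals. Its mean difference was 0.16 ± 0.09 (SE, 95% interval -0.02 to 0.35, limma p = 0.0749, adjusted p = 0.998). By scan it was 0.54, 0.15 and -0.11 on scans 1, 2 and 3, so the direction was not shared by the scans. The largest values came from C30 (0.93) and C2 (0.53), and the lowest was C20 at -0.28. C30 and C2 are scan 1 animals with shallow regions, of 312262 to 345257 recovered counts in C30 and 379919 to 573197 in C2. The part of depth in these values was not tested.

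Myl4, the light chain of embryonic and atrial muscle, spans chr11:104546017-104587215 and was the developmental gene with the smallest p. Its level was 4.87 to 6.16 in CN (median 5.59) and 4.27 to 5.72 in NORM (median 5.15), and CN was higher in 9 of 11 animals. The exceptions were T13 (-0.46) and T7 (-0.01), and the highest differences were in C16 (1.15) and C30 (0.93). The NORM regions of C30 were at 5.41 and 4.14, with 312262 and 317878 recovered counts. On average the difference was 0.38 ± 0.11 (SE, 95% interval 0.14 to 0.61, limma p = 0.00312, adjusted p = 0.998). As for the class II genes, the level was near background, 0.15 log2 units above the negative probe value.

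The other stage markers were closer to 0. Embryonic Myh3 differed by 0.14 ± 0.10 (9 of 11 above 0, p = 0.196), and perinatal Myh8 by 0.02 ± 0.09 (4 of 11, p = 0.789). Myogenin (Myog) differed by -0.07 ± 0.10 (7 of 11 above 0, p = 0.496), and every adjusted p was 0.998. Signs of Myh8 and Myog changed with the setting: with 1 region per animal and type, Myh8 was -0.03 and Myog 0.02. Ncam1, a surface marker of satellite cells and denervated fibres, did not pass the filter on low values and was not tested. Its mean level was 5.06 in CN and 4.69 in NORM, a difference of 0.38 with all 11 animals above 0, and its log2 ratio to the negative probe value was -0.34 on average. Of 13 tested satellite cell and myogenic genes 9 were above 0 with a median of 0.06, and of 7 tested developmental sarcomere genes 5 were above 0 with a median of 0.02. The latter median was -0.0040 with 3 of 7 above 0 without C30, and 0.13 with 7 of 7 above 0 without C20. It was 0.47 with the negative probe value subtracted, where the median of all genes was 0.05. None of these genes reached an adjusted p under 0.05.

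**Figure D2:**
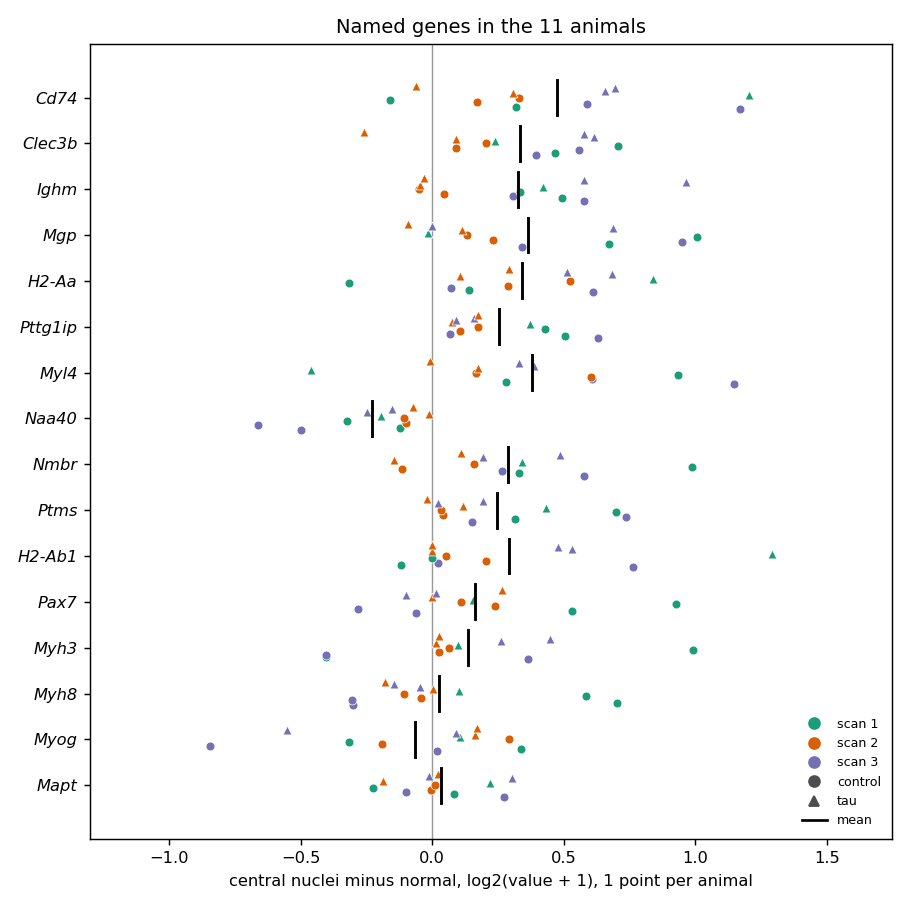
CN minus NORM difference (x axis, log2(value + 1)) of the 10 genes with the smallest p and of fixed marker genes, with 1 point per animal. Colours give the scan, circles are control and triangles tau animals, and black bars are means. Cd74 spans -0.16 to 1.21, Naa40 is below 0 in all 11 animals, and the 4 animals of scan 2 lie closest to 0 for Ighm.

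The remaining genes among the 10 smallest p-values had adjusted p-values of 0.998 too. Clec3b (tetranectin, a plasminogen-binding protein of connective tissue) was higher in CN in 10 of 11 animals, by 0.33 ± 0.08 (p = 0.000654). Mgp, an inhibitor of calcification made by vessel and connective tissue cells, was higher in 8 of 11 by 0.37 ± 0.10 (p = 0.00154). Pttg1ip, a membrane protein that binds securin, was higher in all 11 animals by 0.25 ± 0.07 (range 0.07 to 0.63, p = 0.00207). Nmbr, the neuromedin B receptor, differed by 0.29 ± 0.09 (9 of 11) and Ptms, parathymosin, by 0.25 ± 0.08 (10 of 11). Naa40, an enzyme that acetylates histone tails, was the only one of the 10 that was lower in CN. It was at 5.42 to 6.07 in CN and 5.84 to 6.19 in NORM, below 0 in all 11 animals with a mean of -0.23 ± 0.07 (p = 0.00316).

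All 11 animals lay above 0 for 3 genes (0.0294% of those tested) and below 0 for 3 genes (0.0294%). The former were Pttg1ip, Prps2 and the myelin gene Pmp22, and the latter Naa40, Wars2 and Plat, a set chosen after its values were seen. Pmp22 differed by 0.24 ± 0.08. The Schwann cell list that holds it did not share this: 3 of its 5 tested genes were above 0 with a median of 0.03. Its lowest difference was -0.07, and its summed value was higher in CN in 4 of 11 animals.

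Connective tissue lists leaned to CN by small amounts. Of 11 tested fibro-adipogenic progenitor markers 10 were above 0 with a median of 0.04, a count that was 6 of 11 without C16 or without C40, and a median that ran from 0.03 without C16 to 0.09 without C2. The list was led by Clec3b and by the actin-severing protein Gsn (0.34 ± 0.13, p = 0.0175). Pdgfra, the receptor that defines these cells, was the exception at -0.14 ± 0.08. Of 22 tested extracellular matrix genes 15 were above 0 with a median of 0.06, with laminin Lama2 at 0.16 ± 0.11 and collagens Col1a1 at 0.02 ± 0.10 and Col1a2 at -0.16 ± 0.12. The extracellular matrix median ran from 0.03 without T20 to 0.09 without C2 when 1 animal was left out. Per animal, it ran from -0.31 in C2 to 0.33 in T20. None of these genes was called, and 54.5% of all genes were above 0.

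Genes that distinguish fibre types varied widely between regions of both labels. Fast fibres of this muscle use Myh4 (type IIB), Myh1 (type IIX) or Myh2 (type IIA), slow fibres use Myh7, and oxidative fibres carry more of the oxygen store Mb (myoglobin). The genes named here were picked after their values were seen. Fhl1, a LIM protein of striated muscle, Mb and Myh1 were, with Cd74, the 4 genes with the largest mean differences, at 0.48 ± 0.31, 0.48 ± 0.27 and 0.46 ± 0.28, with p-values of 0.136, 0.088 and 0.11. Animals stood on both sides of 0, from -1.93 in T13 to 2.47 in C20 for Myh1.

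Regions of the same label in the same animal differed by more than this. Myh1 was at 12.89 in one NORM region of C16 and at 7.88 in the other, with the CN region between them at 11.40. In T20 the NORM regions had Myh1 levels of 8.46 and 13.12 and Myh2 levels of 5.41 and 10.93. Among the 3 CN regions of T15, Myh2 was at 6.40, 5.70 and 12.34. SDs between same-type regions were 1.99 for Myh1, 2.07 for Myh2, 1.59 for Mb and 1.79 for Fhl1. Between the 11 CN to NORM differences, which are of region means and not of single regions, the SDs were 1.29, 2.07, 1.23 and 1.45. Myh4, the highest of the heavy chains, varied less, from 11.59 to 15.72 in CN and from 12.46 to 15.73 in NORM, with a difference of -0.05 ± 0.15.

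**Figure D3:**
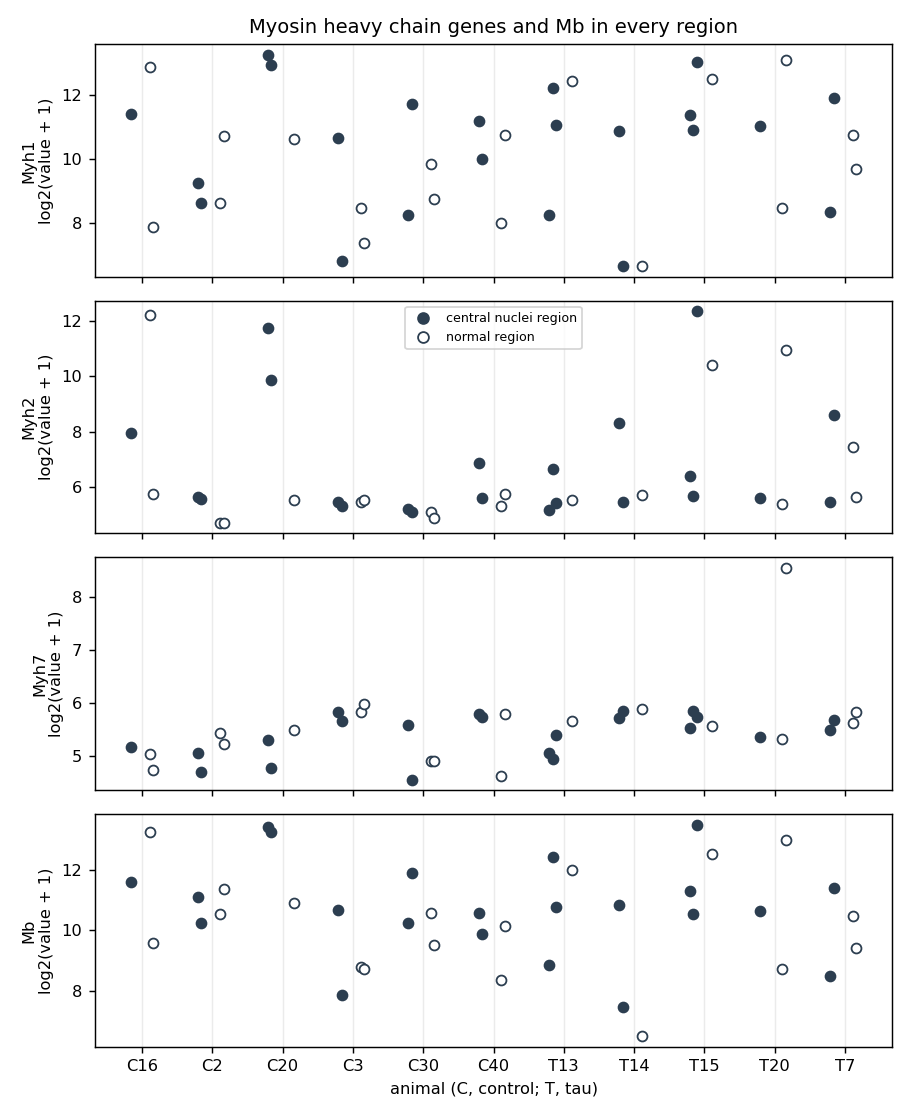
Levels (y axes, log2(value + 1)) of Myh1, Myh2, Myh7 and Mb in each of the 40 regions, grouped by animal (x axis). Filled circles are CN and open circles NORM regions. Regions of one label in one animal lie up to 6.64 apart for Myh2 (T15, CN) and 5.01 apart for Myh1 (C16, NORM), and one NORM region of T20 stands apart for the slow gene Myh7 at 8.54.

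The value of the slow fibre list rested on 1 region. Of 12 tested slow contractile genes 4 were above 0 with a median of -0.08, and in T20 alone the median was -0.97 while the other 10 animals ran from -0.05 to 0.18. Myh7 was at 8.54 in one NORM region of T20 and between 4.56 and 5.98 in all other CN and NORM regions used. Without T20 the list's median was 0.01 and 6 of 12 genes were above 0, and with the negative probe value subtracted it was 0.09. Tnnt1, slow troponin T, had the lowest value of the list at -0.28 ± 0.13 (p = 0.0469, adjusted p = 0.998). Fast contractile genes had 9 of 19 above 0 and a median of -0.01, with a sign that flipped under quantile normalisation.

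Energy metabolism lists leaned to CN on average, though each list's median was above 0 in 6 of 11 animals only. The oxidative phosphorylation and fatty acid lists rested on few animals. Of 36 tested oxidative phosphorylation genes 34 were above 0 with a median of 0.08, and of 18 fatty acid genes 17 were above 0 with a median of 0.11, including the fatty acid binding protein Fabp3 at 0.32 ± 0.16 (p = 0.0563). Of 19 glycogen and glycolysis genes 17 were above 0 with a median of 0.07. An unadjusted p under 0.05 was reached by 0 genes of the 3 lists. By animal, the oxidative phosphorylation median was 0.85 in C20, 0.58 in T14 and -0.45 in T13, and the fatty acid median was 1.09, 0.52 and -0.45 in the same animals.

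C20 also had the largest background gap between its CN and NORM regions, and its CN regions had the higher Myh1, Myh2 and Mb levels. The part of these differences in the energy lists was not tested. Without C20 the oxidative phosphorylation count was 20 of 36 with a median of 0.0047, and the fatty acid count 12 of 18 with a median of 0.01. In tau animals alone 8 of 36 and 3 of 18 genes were above 0, against 35 of 36 and 18 of 18 in control animals. For glycolysis genes the count was 17 of 19 without C20 as well. Their median by animal ran from -0.31 in T13 to 0.49 in T14, with T15 at 0.35 and C20 at 0.26.

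**Figure D4:**
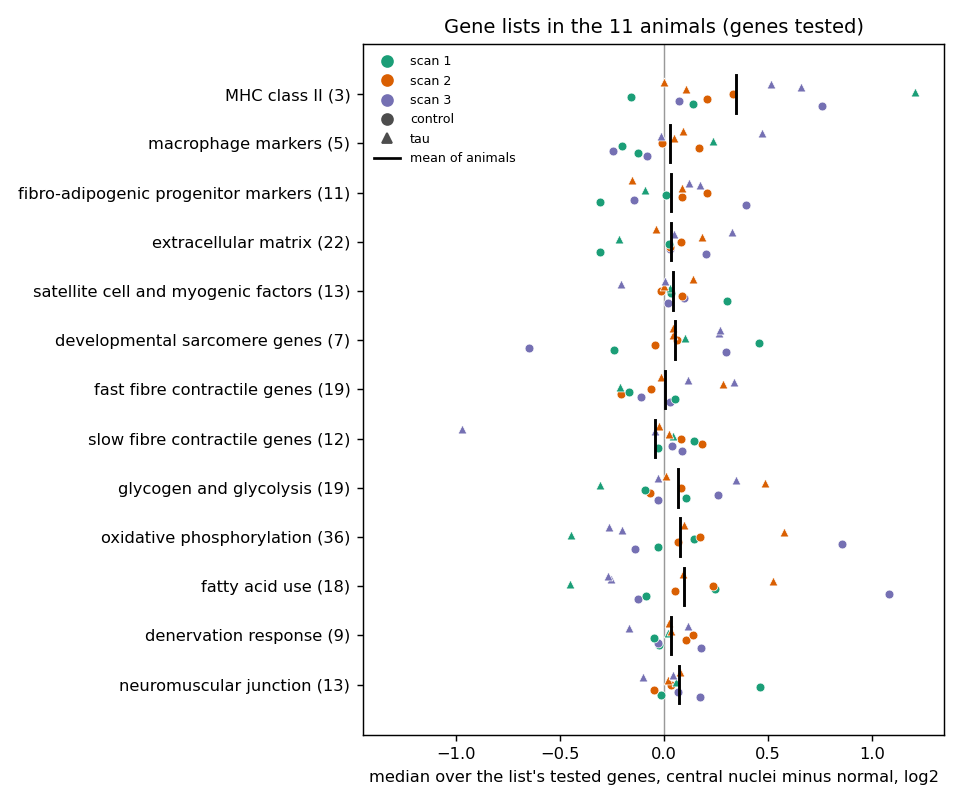
Median CN minus NORM difference (x axis, log2) over the tested genes of 13 lists, with 1 point per animal. The number of genes is in brackets, colours give the scan, circles are control and triangles tau animals, and bars are means of the animals. Class II genes lie above 0 in 9 of 11 animals, slow fibre genes are near 0 outside T20, and the energy lists reach 0.85 and 1.09 in C20.

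Of 13 genes of the neuromuscular junction list 11 were above 0 with a median of 0.05. The median was 0.40 with the negative probe value subtracted, and 0.01 with 8 of 13 above 0 under quantile normalisation. Musk, the kinase that clusters acetylcholine receptors, was at 0.22 ± 0.11 (10 of 11 animals, p = 0.0588, adjusted p = 0.998). Of 9 denervation response genes 3 were above 0 with a median of -0.02, which became 0.01 without C20 and 0.06 without T15. Mapt, the mouse tau gene itself, differed by 0.04 ± 0.06 (6 of 11, p = 0.589). The probe's match to a P301L transcript is not given, so Mapt was not used as a check of the tau label. All 6 tested iron handling genes were above 0 with a median of 0.03, led by the ferritin light chain Ftl1 at 0.21 ± 0.08 (p = 0.0228, adjusted p = 0.998). By animal, the iron list's median was above 0 in 6 of 11, and its summed value was higher in CN in 4 of 11. Of all genes tested, 54.5% were above 0. The other 20 lists had medians from -0.10 (Zbtb46, the only dendritic cell marker tested) to 0.08 (polyamine metabolism). Among them were Schwann cell (given above), endothelial, smooth muscle, adipocyte, cell cycle, muscle atrophy, chaperone and autophagy genes.

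The scans differed in how far genes moved. The median absolute difference over all genes was 0.08 to 0.13 in the 4 animals of scan 2, 0.19 to 0.25 in the 3 of scan 1 and 0.13 to 0.32 in the 4 of scan 3. For Cd74 the mean difference was 0.45, 0.19 and 0.78 on scans 1, 2 and 3, for H2-Aa 0.22, 0.30 and 0.47, and for Myl4 0.25, 0.24 and 0.62. All of these means were above 0. The 3 genes are among those of smallest p over the same animals, so their shared sign was largely set by that choice and is not separate support. Single animals of scan 1 lay below 0, C30 for Cd74 and H2-Aa and T13 for Myl4. For Clec3b the means were 0.47, 0.03 and 0.54. Without scan 2, 0 genes were called, and Cd74 was at 0.64, Clec3b at 0.51 and Ighm at 0.52.

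Tau and control animals were compared in their CN minus NORM differences. No gene passed (0 of 10188, lowest limma adjusted p 0.999976), 318 genes (3.12%) had an unadjusted p under 0.05, and the median half-width of the 95% interval was 0.33. Smallest in p, without passing, were the 5 genes Fgf1, Tmem79, Decr1, Spry1 and Tnfaip8. Fgf1, a fibroblast growth factor, was above 0 in all 6 control animals (0.03 to 1.21) and below 0 in all 5 tau animals (-0.68 to -0.02), a difference of -0.90 ± 0.23 (p = 0.001). Such a split of signs was seen for 6 genes (0.0589% of those tested), and Fgf1 was on average 0.25 log2 units below the negative probe value.

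Decr1, a mitochondrial reductase needed to oxidise unsaturated fatty acids, averaged 0.43 in control and -0.16 in tau animals (difference -0.59 ± 0.17). Spry1, an inhibitor of growth factor signalling, averaged 0.44 and -0.13, and Tnfaip8, a regulator of cell death, 0.31 and -0.18. Tmem79, a membrane protein, had the opposite order, -0.42 in control and 0.17 in tau animals. Among the markers, Cd74 averaged 0.40 in control and 0.56 in tau animals (difference 0.16 ± 0.22, p = 0.479), and H2-Aa 0.22 and 0.49 (0.27 ± 0.19, p = 0.172). Myl4 averaged 0.62 and 0.09 (-0.54 ± 0.20, p = 0.0137, limma adjusted p = 0.999976). Each of these was a difference that the test across all genes did not separate from the spread between animals.

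CN fibres were also set beside the other region types of the same 11 animals, nerve bundle (NB, 18 regions in the whole data set) and surrounding artery (SA, 20 regions). No gene passed in either comparison: 0 for CN minus NB with 526 genes (5.16%) at an unadjusted p under 0.05, and 0 for CN minus SA with 725 genes (7.12%). These comparisons share the CN regions with the one above. Cd74 was higher in CN than in NB by 0.41 ± 0.13 (9 of 11 animals, p = 0.005, adjusted p = 0.812), and relative to SA it was at -0.28 ± 0.31 (6 of 11 above 0). H2-Aa was at 0.28 ± 0.11 against NB and -0.17 ± 0.24 against SA. The mean levels of Cd74 thus ran from 5.75 in NORM and 5.81 in NB to 6.22 in CN and 6.50 in SA, and CN was separated from none of the other 3 by an adjusted p under 0.05. NORM, NB and SA were not compared with each other.

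Pax7 was higher in CN than around arteries in 10 of 11 animals (0.15 ± 0.07, p = 0.0443, adjusted p = 0.684) and differed from NB by 0.13 ± 0.08. Myl4 was at 0.23 ± 0.16 against NB and 0.13 ± 0.12 against SA. Clec3b, in contrast to its place against NORM, was at 0.02 ± 0.08 against NB and -0.21 ± 0.09 against SA. All 36 oxidative phosphorylation genes and all 18 fatty acid genes had lower means in CN than in NB and in SA, with medians of -0.19 and -0.36 against NB and -0.17 and -0.27 against SA. None of these genes was called. Over all 10188 tested genes, 5631 were above 0 against NB and 5273 against SA. How far the counts of these lists rest on single animals was not tested.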

How the data were processed

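The data are 80 GeoMx regions from 12 mice, of which the 11 with both region types entered the comparison. The authors deposited a table of signal, which per the file headers is Q3 normalised (scaled to the upper quartile) and linear. The background of the negative probes is still in the values. The submitters' processing notes name the mm10 build, while the counting software was not given in the sources used here. Each region's values divide by 1 common step into whole numbers (tolerance 0.02), which gave the total counts (at least 99.98% of values whole in each region) and an edgeR alternative. No per-sample column was left out.

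Of 10842 genes, 10188 reached 1.5 times the negative probe value in at least 10% of regions and 654 were not tested. Values were log2(value + 1), so fold changes of low genes are understated. Regions were averaged per animal and type, and limma 3.58.1 (R 4.3.3) tested the within-animal differences, with moderated variances that follow the level, Benjamini-Hochberg adjustment and a threshold of 0.05. Files were read with data.table (version 1.17.8), and edgeR 4.0.16 was used as an alternative. Animals, as the labels name them, pair the regions, and regions of 1 animal were never counted as replicates. The interaction of tau with the difference, and CN against the other region types, were fitted the same way, with the labelled sex not used. Fits were tested on simulated data. Depth and background were compared by exact sign-flip permutation over 2048 sign patterns.

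Since no gene passed the threshold, the rule named the 10 with the smallest p and the 5 with the smallest p of the interaction, and the markers H2-Aa, Cd74, Myl4, Pax7, Myh3, Myh8, Myog, Ncam1 and Mapt. Other list members named in the text were picked after their values were seen. The members, the 37 lists and the markers were chosen with earlier results of these data known. Positions are from a RefSeq annotation of GRCm38.p6, in which 10164 tested symbols were found. Total counts limit precision through counting error, and the part of depth in the values of low genes was not tested. Some marker genes are not reported here.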

Additional observations from a re-analysis of the deposited data

Results flagged for a closer look

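In 20 named genes, the control and the tau animals' CN minus NORM differences were each checked for an animal far from the others, 40 groups in all, and chance gives about 1 such animal in 20 groups. Mgp stood out in tau animal T15, at 0.69 against -0.09 to 0.11 in the other tau animals. Myog stood out in tau animal T20, at -0.55 against 0.09 to 0.17. Fgf1 was picked out because every control animal was above 0 and every tau animal below 0, with a tau minus control difference of -0.90 ± 0.23 that did not pass the adjustment over all genes (limma adjusted p = 0.999976).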

How the results depend on the processing

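The count of genes called between CN and NORM was 0 under all 27 planned and 3 added settings, the latter chosen after seeing the data, with 48 to 462 genes at an unadjusted p under 0.05. Without the replicate block, which ignores the pairing by animal, the count was 0 with 48 genes at that level. The tau minus control count was 0 in its 18 settings, and the CN minus NB and CN minus SA counts were 0 in 15 settings each, the replicate block included. The lowest adjusted p of any setting was 0.066, for H2-Aa by edgeR on recovered counts (difference 0.39). The 10 genes of smallest p kept their direction in every setting that gave a value, as did Pax7, Myh3 and Mapt. Cd74 ran between 0.40 and 1.53 and H2-Aa between 0.22 and 1.41, the upper ends from subtraction of the negative probe value. The 10 genes were chosen by p from values that the settings reuse. Their kept direction was thus largely set by that choice and is not separate support.
Myh8 CN minus NORM turned to -0.000212 with quantile normalisation, -0.0260 with 1 region per animal and type, -0.0533 in tau animals only and -0.0617 by edgeR, and ran from -0.0437 to 0.0570 when 1 animal was left out. Myog CN minus NORM turned to 0.0201 with 1 region per animal and type and 0.00802 by edgeR, and ran from -0.107 to 0.0117 when 1 animal was left out. The cause was not tested. The stricter filter left 2861 genes. In the main fit, the median half-width of the 95% interval was 0.15 for the 500 genes with the highest levels and 0.16 for all genes.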

Other observations

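A few genes were high in a single region. Looking for genes whose highest region stood more than 3 log2 units above the next of all 80 regions, chosen after seeing the data, gave 3 genes with that region among the CN and NORM regions used. Lmo1, a LIM-domain transcriptional regulator, had a value of 614 in the CN region of C16 and at most 48.3 in the other 79 regions. Olfm1, a secreted olfactomedin-domain protein, had a value of 1106.5 in the NORM region of T14 and at most 103 elsewhere. Kcnk3, a potassium channel of the acid-sensitive background type, had 338 in the same NORM region of T14 and at most 40.4 elsewhere. Lmo1 and Kcnk3 did not pass the filter on low values. The Olfm1 difference of T14 was -3.69, and those of the other 10 animals lay between -0.22 and 0.27.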
